A study of Mus musculus with 17 samples.

Results

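The genes described here are 39 genes of autophagy and mitophagy, chosen by name from the core machinery of the pathway and sorted here by role. All 39 were among the 22859 genes of the count table, and all 39 passed the filter on low counts, which left 15272 genes. They were measured by bulk RNA-seq in macrophages sorted from the knee synovium, the membrane that lines the joint, of adult mice. All mice carried the Fcgr2b-KO genotype, controls included. Fcgr2b encodes FcγRIIb, which restrains signalling by the activating Fc receptors, and the knockout is present in the germline rather than in 1 cell type. Macrophages sorted as LYVE1+CX3CR1+ (written LYVE1+ from here on), as MHCII+CD11c- or as MHCII+CD11c+ came from control mice (n = 3 libraries for each subset) or from mice that had received immune complexes (IC), ovalbumin bound by rabbit antibody, into a vein 8 h earlier (n = 3, 3 and 2 libraries). No wild-type libraries were analysed here, so no value below compares genotypes. Nothing in the labels says which libraries share an animal, and p-values measure the spread between libraries, which may be partly technical.

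Autophagy encloses cytoplasm in a double membrane that fuses with lysosomes. The ULK1 kinase complex starts the process and a class III PI3-kinase complex marks the membrane with PI3P. Lipid transfer proteins and WIPI proteins let the membrane grow, and a conjugation system attaches ATG8 proteins (the LC3 and GABARAP proteins) to its lipid. Cargo receptors such as p62, encoded by Sqstm1, bind both ubiquitin and ATG8 proteins and so bring cargo to the membrane. In mitophagy the cargo is a mitochondrion. The kinase PINK1 accumulates on damaged mitochondria and recruits the ubiquitin ligase parkin, while NIX (Bnip3l) and FUNDC1 are receptors in the mitochondrial outer membrane. In macrophages the same conjugation machinery also acts on phagosomes, among them those that form after Fc receptors bind IgG.

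Libraries held 2301913 to 7248939 counts. Drawn down to an equal total, the 3 LYVE1+ libraries after IC had 11547 to 13817 genes with at least 1 count, and the other 14 libraries had 13820 to 17669. Fcgr2b had 69.3 to 248 CPM (counts scaled to a common library size by the trimmed mean of M-values, TMM) over the libraries, and as the deleted part of the gene is not stated, these counts do not check the genotype. Defining markers of the subsets followed the labels. Itgax, which encodes CD11c, had 275 to 443 CPM in MHCII+CD11c+ libraries and at most 16.0 CPM elsewhere, and H2-Ab1 of MHC class II had at most 36.8 CPM in LYVE1+ libraries and at least 2650 CPM in the others. Lyve1 was not restricted to its subset, with 695 to 2460 CPM in MHCII+CD11c- libraries. The summed level of 8 neutrophil markers was 30.8 to 40 CPM in LYVE1+, 41.1 to 307 CPM in MHCII+CD11c- and 84.5 to 466 CPM in MHCII+CD11c+ controls, and 7.24 to 32.8, 62.7 to 111 and 25.7 to 29.7 CPM after IC. Of these, Ly6g was at 0 in every library of LYVE1+ macrophages and in every library taken after IC, and none was at 0 in all control libraries of either MHCII+ subset. In bulk libraries fewer cells of a type and less RNA per cell cannot be told apart.

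Sqstm1 was the most abundant of the 39 genes in every group, also per exon length. In control mice it had 405 CPM per kb of exon in the LYVE1+, 283 in the MHCII+CD11c- and 256 in the MHCII+CD11c+ subset (means, n = 3 each). Gabarap followed with 103, 87.2 and 74.3 CPM per kb, and the ranges of these 2 genes did not overlap in any control subset. Gabarapl1, Pink1 and Map1lc3b came next in LYVE1+ controls at 40.3, 35.9 and 34.3 CPM per kb with overlapping ranges, whereas Atg2a, Tax1bp1 and Atg101 came next in MHCII+CD11c+ controls at 25.0, 24.0 and 23.1. At the low end, Atg10 had 0 to 56 counts in a library and was at or under the floor of 3 counts in 2 of 17 libraries, so nothing could be read from its fold changes at this depth. No other member fell to that floor in any library. Sqstm1 alone made up 22.4% to 35.3% of the summed CPM of the 39 genes, and that sum lay between 2870 and 4230 CPM.

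**Figure D1:**
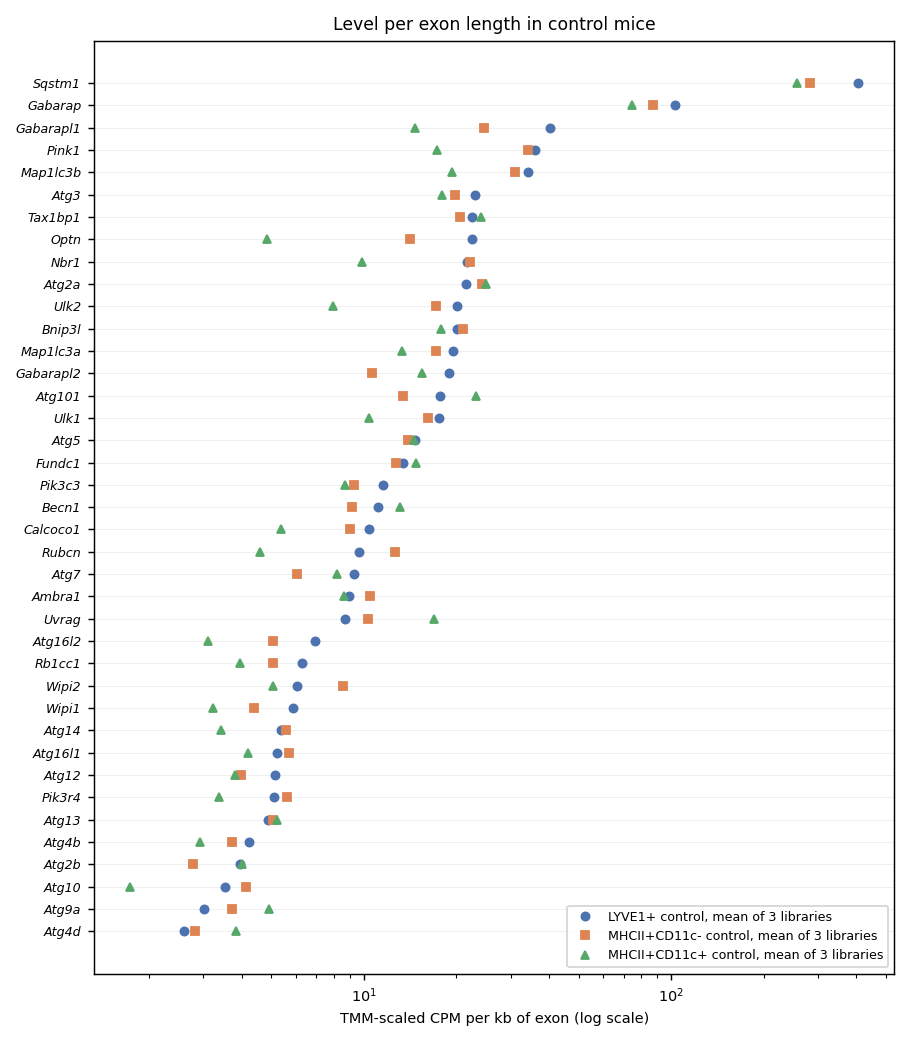
Mean level of each of the 39 genes in control mice, in TMM-scaled CPM per kb of exon on a log axis, with 1 symbol for each macrophage subset (n = 3 libraries each). Sqstm1 and Gabarap stand to the right of all others in each subset, and Pink1, Optn and Nbr1 are among the genes for which the MHCII+CD11c+ symbol lies to the left of the other 2.

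More of the 39 genes were called between MHCII+CD11c+ controls and either other control subset than after IC, and this also held for all genes. Of the 39, 14 differed between LYVE1+ and MHCII+CD11c+ controls at an adjusted p under 0.05, 13 of them higher in LYVE1+ macrophages and 1, Uvrag, lower. All adjusted p-values are from the quasi-likelihood test of edgeR, adjusted over all genes tested. That is 35.9% of the members, beside 15.2% of all genes tested, and genes called higher on the LYVE1+ side were 7.83% of all genes. The median log2 fold change was 0.42 over the members and 0.05 over all genes. Between MHCII+CD11c+ and MHCII+CD11c- controls 9 of 39 differed (23.1%, beside 8.66% of all genes), with 8 lower in MHCII+CD11c+ macrophages (4.99% of all genes were called lower) and Uvrag higher. The median was -0.28 over the members and -0.03 over all genes. These comparisons share the MHCII+CD11c+ control libraries, so the second is not independent of the first. Without LYVE1+ control replicate 1 or without MHCII+CD11c+ control replicate 1, the count of 14 became 7. The count of 9 became 5 without MHCII+CD11c- control replicate 3, 4 without MHCII+CD11c+ control replicate 1 and 3 with surrogate variables in the model. The share of all genes called in these fits is not given here, so the counts do not show whether the excess over all genes changed. Other cell markers moved with this split. The summed level of 7 macrophage markers was 2590 to 3390 CPM in MHCII+CD11c+ controls, 7080 to 10300 CPM in LYVE1+ and 6890 to 10200 CPM in MHCII+CD11c- controls. That of 4 dendritic cell markers was 83.0 to 135, 11.3 to 14.9 and 19.8 to 71.5 CPM in the same order, and that of 4 monocyte markers 555 to 1170, 20.2 to 39.4 and 231 to 514 CPM. The sum of the neutrophil markers given above was also higher in each MHCII+CD11c+ control than in each LYVE1+ control, and overlapped MHCII+CD11c- controls. No marker of these lists was at 0 in all MHCII+CD11c+ control libraries, while Ccr7 and Ly6c2, and of the neutrophil list Ly6g, Cxcr2 and Mmp8, were at 0 in all LYVE1+ control libraries. Their part in the result was not tested.

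**Figure D2:**
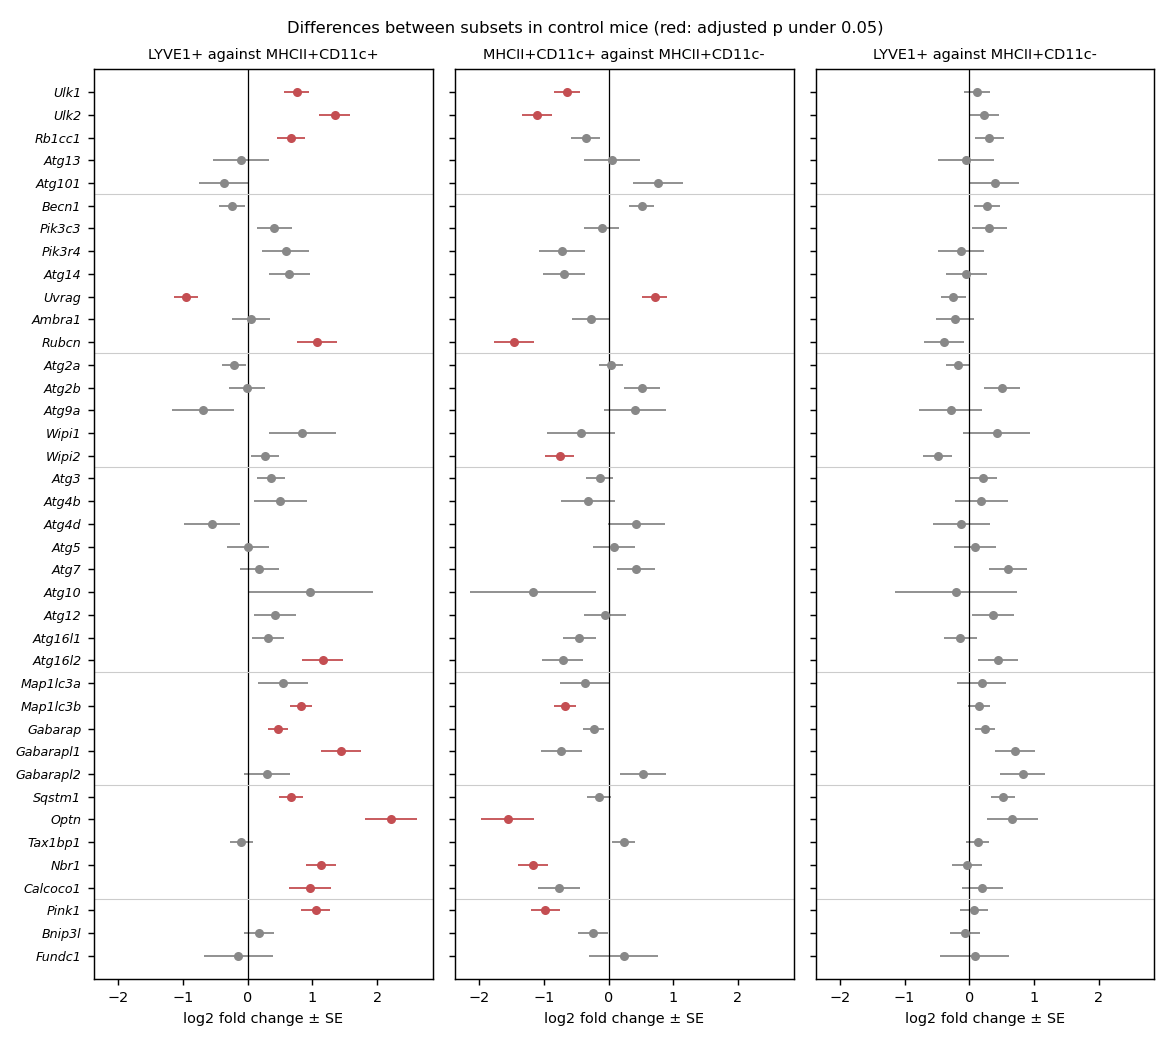
Log2 fold change (point) with its standard error (bar) of the 39 genes between pairs of macrophage subsets in control mice, grouped by role from initiation at the top to mitophagy at the bottom, n = 3 libraries per group. Red points have an adjusted p under 0.05, and there are 14, 9 and 0 of them from left to right, with Uvrag opposite in sign to the others.

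Among the 5 initiation genes, the kinase genes Ulk1 and Ulk2 were called lower in MHCII+CD11c+ macrophages than in either other subset, of which the call of Ulk1 against MHCII+CD11c- was lost in 11 of 16 alternatives. Ulk2 had 116, 96.8 and 148 CPM in LYVE1+ controls, 99.6, 94.2 and 114 in MHCII+CD11c- controls, and 53.8, 45.1 and 43.5 in MHCII+CD11c+ controls. After IC the values were 102, 86.9 and 109, then 106, 75.0 and 53.9, then 65.1 and 45.1. In controls the MHCII+CD11c+ libraries stood below all others, with a log2 fold change of 1.34 ± 0.24 (SE, adjusted p = 0.0002634) for LYVE1+ against them and -1.11 ± 0.24 (adjusted p = 0.003609) for MHCII+CD11c+ against MHCII+CD11c-. Ulk1 had 119, 110 and 112 CPM in LYVE1+, 95.3, 110 and 110 in MHCII+CD11c- and 49.8, 78.9 and 74.1 in MHCII+CD11c+ controls, and the corresponding differences were smaller at 0.75 ± 0.20 (adjusted p = 0.0104) and -0.64 ± 0.20 (adjusted p = 0.04764). Its values after IC were 96.8, 106 and 124, then 77.8, 68.2 and 71.5, then 65.1 and 49.8 CPM. Rb1cc1 encodes FIP200, the scaffold of the ULK1 complex. It had 97.8, 79.7 and 99.2 CPM in LYVE1+, 75.3, 74.8 and 73.2 in MHCII+CD11c- and 62.5, 66.1 and 45.4 in MHCII+CD11c+ controls, and differed between the first and the last (0.67 ± 0.22, adjusted p = 0.0430), a call lost in 11 of 16 alternatives. After IC it had 68.8, 107 and 103, then 62.1, 64.9 and 91.1, then 57.7 and 59.7 CPM, with overlap between LYVE1+ and MHCII+CD11c- libraries. Atg13 and Atg101, further parts of the complex, ranged from 7.87 to 38.3 and from 13 to 56.7 CPM over the 17 libraries and passed no test.

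The 7 genes of the PI3-kinase complexes held the exception in direction. Uvrag encodes a partner of beclin 1 in the complex that acts on endosomes and late autophagosomes, and Rubcn encodes rubicon, an inhibitor of that complex which is also needed for LC3-associated phagocytosis. Uvrag had 86.3, 69.2 and 79.8 CPM in LYVE1+ controls, 99.6, 98.3 and 81.2 in MHCII+CD11c- controls, and 165, 146 and 146 in MHCII+CD11c+ controls. All MHCII+CD11c+ libraries lay above all others, and the log2 fold change was -0.96 ± 0.19 (adjusted p = 0.0008436) for LYVE1+ against them and 0.71 ± 0.19 (adjusted p = 0.01788) for MHCII+CD11c+ against MHCII+CD11c-. Rubcn ran the other way, with 75.9, 62.7 and 76.9 CPM in LYVE1+, 124, 49.8 and 109 in MHCII+CD11c- and 31.5, 31.4 and 40.1 in MHCII+CD11c+ controls. The last group lay below both others, by a log2 fold change of 1.07 ± 0.31 (adjusted p = 0.02014) for LYVE1+ against it and of -1.46 ± 0.31 (adjusted p = 0.003637) for it against MHCII+CD11c-, although MHCII+CD11c- control replicate 2 stood far below the other 2 libraries of its group. After IC, Rubcn had 45.9, 62.6 and 105, then 84.7, 61.6 and 55.3, then 30.9 and 43.8 CPM. Becn1 for beclin 1 itself, Pik3c3 for the catalytic subunit VPS34, Pik3r4 for its partner VPS15, Atg14 for the subunit that directs the complex to autophagosome formation, and the regulator Ambra1 passed no test between control subsets. Becn1 ranged from 56.8 to 115 CPM over all libraries, Pik3c3 from 31.8 to 68.0, Pik3r4 from 11.7 to 77.6, Atg14 from 11.7 to 46.9 and Ambra1 from 26.1 to 80.8.

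Of the 5 genes for lipid transfer and PI3P effectors, 1 passed a test between control subsets. Wipi2, which links PI3P to ATG16L1, had 59.4, 66.2 and 66.8 CPM in LYVE1+, 86.6, 82.9 and 101 in MHCII+CD11c- and 52.3, 49.0 and 59.0 in MHCII+CD11c+ controls. It was highest in MHCII+CD11c- macrophages, with no overlap with either other control group, and was lower in MHCII+CD11c+ macrophages by -0.75 ± 0.22 on the log2 scale (adjusted p = 0.03208), a call lost in 7 of 16 alternatives. After IC it had 69.6, 60.4 and 59.7, then 77.4, 80.3 and 129, then 59.1 and 44.2 CPM. The lipid transfer genes Atg2a and Atg2b, the scramblase gene Atg9a and the PI3P effector gene Wipi1 ranged from 102 to 229, 30.5 to 73.4, 4.13 to 42.7 and 3.78 to 40.2 CPM. Of the conjugation and processing genes, 1 of 9 was called between control subsets. That gene was Atg16l2, a paralog of the conjugation factor gene Atg16l1. It was higher in LYVE1+ than in MHCII+CD11c+ controls (62.7, 68.6 and 44.9 against 22.8, 29.0 and 27.2 CPM, log2 fold change 1.16 ± 0.32, adjusted p = 0.01401), while MHCII+CD11c- controls had 35.2, 55.7 and 38.1 CPM and overlapped LYVE1+ controls. Of the other 8, the E2-like Atg3 and Atg10, the E1-like Atg7, the ubiquitin-like Atg12, its target Atg5, the proteases Atg4b and Atg4d, and Atg16l1, the lowest and highest values were 0 CPM for Atg10 and 110 CPM for Atg3.

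The 5 ATG8 genes were all higher on average in LYVE1+ than in MHCII+CD11c+ controls, and 3 of them passed the test. Gabarapl1 had 86.9, 67.6 and 88.9 CPM in LYVE1+, 48.2, 55.1 and 45.5 in MHCII+CD11c- and 21.9, 47.0 and 20 in MHCII+CD11c+ controls. LYVE1+ libraries lay above the rest, by 1.44 ± 0.31 (adjusted p = 0.00219) against MHCII+CD11c+ on the log2 scale, and after IC the values were 57.3, 60.4 and 85.5, then 53.0, 30.7 and 28.3, then 41.4 and 27.1 CPM. Map1lc3b, which encodes LC3B, the usual protein marker of autophagosomes, had 263, 275 and 237 CPM in LYVE1+, 210, 235 and 252 in MHCII+CD11c- and 132, 149 and 157 in MHCII+CD11c+ controls. The MHCII+CD11c+ group lay below both others (0.82 ± 0.17, adjusted p = 0.001042, for LYVE1+ against it and -0.67 ± 0.17, adjusted p = 0.01095, for it against MHCII+CD11c-). After IC, Map1lc3b had 235, 267 and 229, then 163, 202 and 197, then 135 and 102 CPM. Gabarap differed less, with 185, 188 and 196 CPM in LYVE1+, 148, 160 and 175 in MHCII+CD11c- and 146, 149 and 116 in MHCII+CD11c+ controls (0.47 ± 0.16, adjusted p = 0.04625, for the first against the last), and this call was lost in 12 of 16 alternatives. It had 200, 218 and 205, then 173, 163 and 180, then 168 and 183 CPM after IC. Map1lc3a and Gabarapl2 ranged from 9.08 to 35.6 and from 10 to 53.5 CPM and passed no test.

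Of the cargo receptors, 4 of 5 were higher in LYVE1+ macrophages than in MHCII+CD11c+ macrophages of control mice. Optn encodes optineurin, a receptor for ubiquitinated mitochondria and bacteria. It had 82.4, 90.5 and 79.7 CPM in LYVE1+, 42.9, 83.8 and 32.1 in MHCII+CD11c- and 8.30, 25.6 and 20.4 in MHCII+CD11c+ controls. The MHCII+CD11c+ libraries lay below all others, and LYVE1+ libraries were 4.65-fold higher (log2 fold change 2.22 ± 0.41, adjusted p = 0.0008436), the largest of the 28 differences called among the 39 genes. Against MHCII+CD11c-, MHCII+CD11c+ libraries were lower by -1.56 ± 0.41 (adjusted p = 0.02187), and MHCII+CD11c- control replicate 2 stood apart with about the LYVE1+ level. After IC, Optn had 72, 109 and 63.5, then 52.8, 68.2 and 35.8, then 25.3 and 10.8 CPM.

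Nbr1, which encodes a receptor for protein aggregates and peroxisomes, had 140, 140 and 165 CPM in LYVE1+, 169, 122 and 164 in MHCII+CD11c- and 48.5, 64.6 and 90.8 in MHCII+CD11c+ controls. It was lower in MHCII+CD11c+ macrophages in both comparisons, by 1.13 ± 0.24 (adjusted p = 0.001527) for LYVE1+ against them and -1.17 ± 0.24 (adjusted p = 0.00241) for them against MHCII+CD11c-. After IC, Nbr1 had 104, 112 and 173, then 125, 81.0 and 91.4, then 77.9 and 80.3 CPM. Calcoco1, a receptor for reticulum and Golgi membranes, had 65.2, 51.6 and 62.0 CPM in LYVE1+, 58.7, 54.8 and 41.8 in MHCII+CD11c- and 25.7, 29.0 and 37.4 in MHCII+CD11c+ controls, and 1 difference was called (0.96 ± 0.32, adjusted p = 0.04524, for the first against the last, lost in 8 of 16 alternatives). Its values after IC were 50, 29.0 and 65.5, then 49.0, 25.5 and 19.5, then 36.0 and 31.7 CPM. Sqstm1 had 1370, 1440 and 1270 CPM in LYVE1+, 825, 1280 and 742 in MHCII+CD11c- and 722, 986 and 871 in MHCII+CD11c+ controls. LYVE1+ libraries were higher than MHCII+CD11c+ libraries (0.66 ± 0.18, adjusted p = 0.01522) with no overlap, whereas 1 of the 3 MHCII+CD11c- libraries reached the LYVE1+ range. After IC, Sqstm1 had 1330, 1190 and 1350, then 1230, 1320 and 902, then 1150 and 1120 CPM. The IC groups of the 3 subsets therefore overlapped between LYVE1+ and MHCII+CD11c- macrophages. Tax1bp1, with 158 to 265 CPM over all libraries, passed no test.

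**Figure D3:**
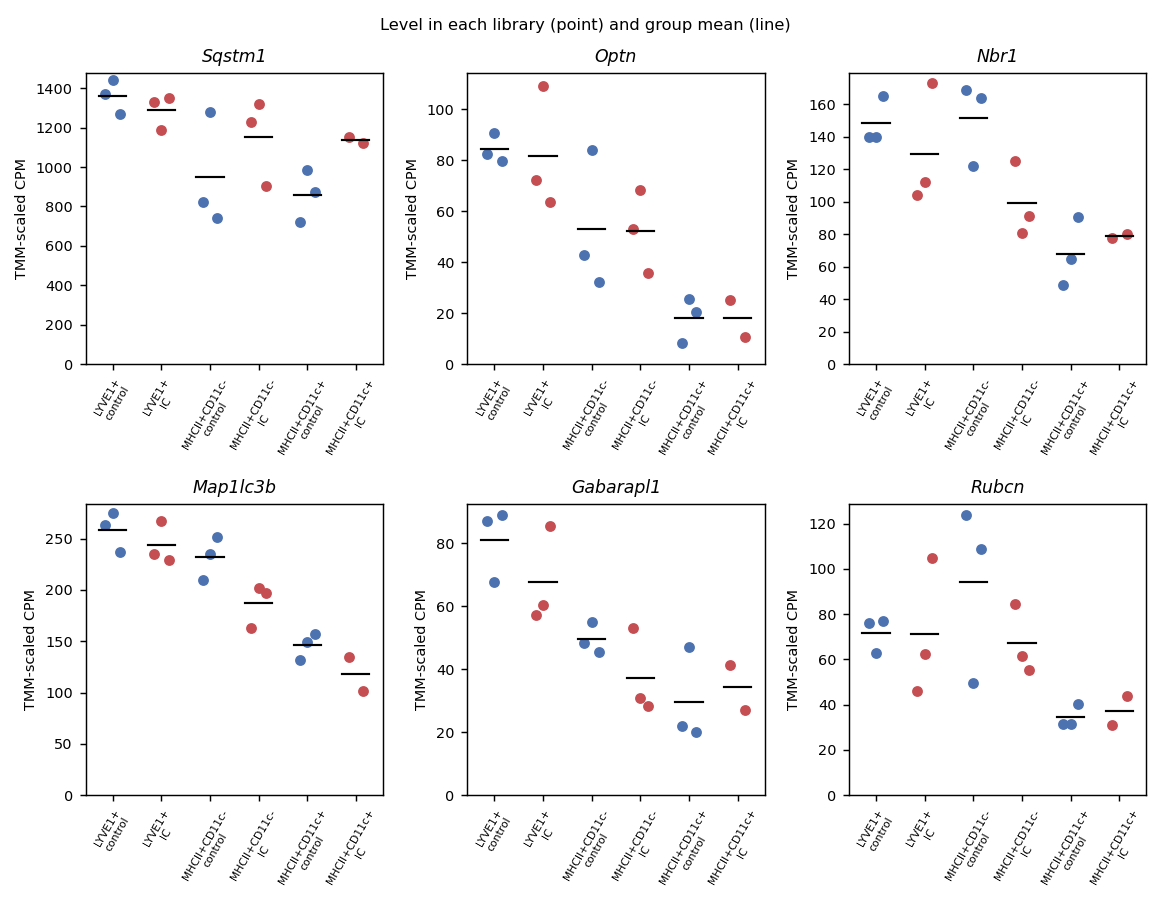
TMM-scaled CPM of 6 members in each of the 17 libraries (points), with the group mean (line), for 3 macrophage subsets with and without IC (blue, control, red, IC, 2 or 3 libraries a group). The control points of MHCII+CD11c+ macrophages lie lowest for Optn, Nbr1, Map1lc3b and Rubcn, with no point of the other control groups below them.

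Pink1 was the mitophagy gene that differed. It had 100, 89.7 and 98.0 CPM in LYVE1+ controls, 88.3, 84.1 and 102 in MHCII+CD11c- controls, and 38.3, 56.1 and 44.6 in MHCII+CD11c+ controls. MHCII+CD11c+ libraries lay below the others, by 1.05 ± 0.22 (adjusted p = 0.001757) for LYVE1+ against them and -0.98 ± 0.22 (adjusted p = 0.006152) for them against MHCII+CD11c-. Bnip3l and Fundc1 passed no test and ranged from 47.3 to 99.6 and from 2.07 to 50.8 CPM.

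None of the 39 genes was called between LYVE1+ and MHCII+CD11c- controls (1.56% of all genes were called by edgeR). At an unadjusted p under 0.05 in edgeR there were 4 of 39, beside 1564 of all 15272 genes. Of these 4, Sqstm1 (0.52 ± 0.18, adjusted p = 0.219), Gabarapl1 and Gabarapl2 were higher and Wipi2 was lower in LYVE1+ macrophages. DESeq2 called 0 and limma with sample quality weights called 2, Sqstm1 and Gabarapl1. The share of all genes called in these fits is not given here. Sqstm1 was also called without MHCII+CD11c- control replicate 2, the library with the highest Sqstm1 level of its group.

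At 8 h after IC few of these genes were called. In MHCII+CD11c- macrophages Pink1 fell, from 88.3, 84.1 and 102 CPM in controls to 45.7, 40.0 and 30.3 CPM after IC. The groups did not overlap, and the level was 2.36-fold lower (log2 fold change -1.24 ± 0.22, adjusted p = 0.006959). It was the only member called in this subset, 1 of 39, beside 0.701% of all genes. In group means ± SD, Pink1 went from 91.5 ± 9.34 to 38.6 ± 7.79 CPM (n = 3 each), beside 46.3 ± 9.03 CPM (n = 3) in MHCII+CD11c+ controls, and the IC libraries of MHCII+CD11c- macrophages overlapped those controls in range. This last pair was not tested. In LYVE1+ macrophages Pink1 had 85.4, 85.6 and 126 CPM after IC, overlapping its controls (0.04 ± 0.22, adjusted p = 0.9727), and in MHCII+CD11c+ macrophages 37.9 and 34.1 CPM, just below theirs (-0.37 ± 0.25, adjusted p = 1). Without MHCII+CD11c- IC replicate 3 the change of Pink1 in MHCII+CD11c- macrophages was -1.09 with an adjusted p of 0.08429, the highest over the alternatives, and the call was lost. In the same subset the summed level of 4 MHCII-side markers was 16300 to 17600 CPM in controls and 11100 to 11600 CPM after IC, and that of 6 LYVE1-side markers 1020 to 1900 and 1840 to 3370 CPM. No marker of either list was at 0 in these groups, and their part in the change of Pink1 was not tested.

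The response of Pink1 differed between LYVE1+ and MHCII+CD11c- macrophages by 1.28 ± 0.31 on the log2 scale (unadjusted p = 0.0004738 in edgeR), which did not pass after adjustment (adjusted p = 0.2341, 0.01446 to 0.5922 over the alternatives). DESeq2 gave the lowest of these and called it. No member was called by edgeR in any comparison of IC responses, where 0.0262%, 0.0327% and 0% of all genes were called for LYVE1+ against MHCII+CD11c-, LYVE1+ against MHCII+CD11c+, and MHCII+CD11c+ against MHCII+CD11c-. Unadjusted p-values under 0.05 in edgeR were found for 4, 1 and 2 of 39 members in the same order, beside 1152, 1225 and 496 of all 15272 genes. DESeq2 called 1, 0 and 0 members, and its share of all genes is not given here.

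In LYVE1+ macrophages the 1 member called after IC was Atg16l2. It had 62.7, 68.6 and 44.9 CPM in controls and 15.5, 27.1 and 27.0 CPM after IC, with no overlap and a 2.54-fold lower level (log2 fold change -1.34 ± 0.32, adjusted p = 0.04607, beside 0.963% of all genes called). In this comparison all genes tested had a median log2 fold change of -0.14. The call was close to the threshold and was lost without any single library of LYVE1+ macrophages, at an adjusted p of 0.0605 to 0.1752 and a log2 fold change of -1.08 to -1.46. It was also lost at equal depth (adjusted p = 0.105) and with the 2 groups fitted alone (adjusted p = 0.1317), and the adjusted p lay between 0.009839 and 0.1752 over all alternatives. Fewer genes were detected in these IC libraries at the same depth, and 4 MHCII-side markers had a summed 102 to 156 CPM in controls and 19.8 to 49.2 CPM after IC, with H2-Eb1 at 0 in all 3 IC libraries. Their part in the change was not tested. In MHCII+CD11c- macrophages Atg16l2 had 25.9, 52.9 and 32.5 CPM after IC and overlapped its controls. In MHCII+CD11c+ macrophages it had 17.8 and 13.4 CPM after IC, below all 3 controls, but was not called (-0.75 ± 0.36, adjusted p = 0.9654).

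In MHCII+CD11c+ macrophages, with 2 libraries after IC, no member was called by edgeR, DESeq2 or limma (0.216% of all genes by edgeR). Only 1 of 39 members, Atg3, had an unadjusted p under 0.05 in edgeR, beside 795 of all 15272 genes. Averaged over the 3 subsets, 3 of 39 members were called, 7.69% beside 3.35% of all genes. Atg16l2 was lower (-0.77 ± 0.19, adjusted p = 0.02712), Pink1 was lower (-0.52 ± 0.13, adjusted p = 0.03211) and Uvrag was higher (0.41 ± 0.11, adjusted p = 0.04176). These calls were lost in 7, 12 and 14 of 25 alternatives. Among the IC comparisons Uvrag was called on this average only. After IC it had 84.8, 127 and 88.4 CPM in the LYVE1+ subset, 121, 113 and 152 in the MHCII+CD11c- subset, and 211 and 200 in the MHCII+CD11c+ subset. IC libraries lay above all controls of the same subset in both MHCII+ subsets, and overlapped them in LYVE1+ macrophages. Atg3, which encodes the enzyme that attaches ATG8 proteins to lipid, came just short of the threshold (0.42 ± 0.13, adjusted p = 0.07454), from 72.7 ± 4.25, 62.5 ± 3.12 and 56.5 ± 10 CPM in controls to 94.7 ± 15.9, 79.8 ± 17.1 and 81.0 ± 5.22 CPM after IC in the order of the subsets above. The count of 3 was 0 without LYVE1+ control replicate 1, without MHCII+CD11c- IC replicate 3, or without MHCII+CD11c+ IC replicate 1 or 2. It was 1 without LYVE1+ IC replicate 2, LYVE1+ control replicate 2 or 3, MHCII+CD11c- control replicate 1 or 3, or MHCII+CD11c+ control replicate 2.

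**Figure D4:**
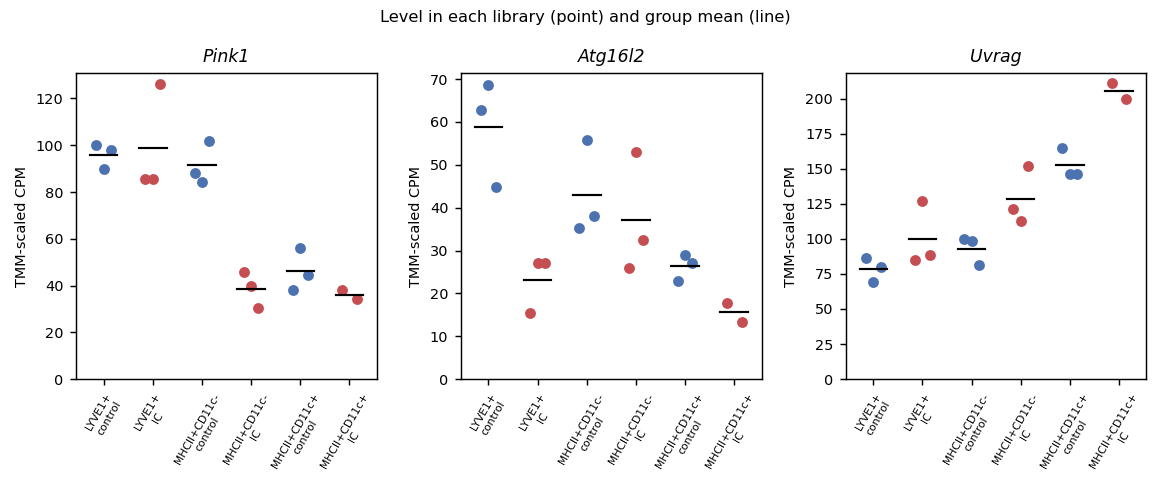
TMM-scaled CPM of Pink1, Atg16l2 and Uvrag in each of the 17 libraries (points) with the group mean (line), for 3 macrophage subsets in control mice (blue) and after IC (red), 2 or 3 libraries a group. The 3 IC points of Pink1 in MHCII+CD11c- macrophages lie at 30.3 to 45.7 CPM, below their controls and overlapping the MHCII+CD11c+ libraries, and Uvrag is highest in MHCII+CD11c+ macrophages after IC.

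Complete separation of IC and control libraries, without a test, was no more frequent among the members than among all genes in 2 of the 3 subsets. In LYVE1+ macrophages 5 of 39 members separated (12.8%, beside 21.6% of all genes), Gabarap, Atg3 and Atg14 upward and Atg16l2 and Atg2a downward. In MHCII+CD11c- macrophages 6 of 39 did (15.4% beside 17.2%), Uvrag upward and Pink1, Bnip3l, Ulk1, Map1lc3a and Map1lc3b downward. In MHCII+CD11c+ macrophages 11 of 39 did (28.2% beside 23.1%), with Gabarap, Sqstm1, Atg3 and Uvrag upward (4) and Gabarapl2, Map1lc3a, Atg16l2, Atg2a, Atg2b, Pink1 and Atg14 downward (7). Atg14 was the member that separated in opposite directions, at 40.1, 36.8 and 46.9 CPM after IC against 18.4, 25.7 and 25.7 in LYVE1+ controls, and at 12.2 and 11.7 against 15.3, 15.6 and 13.6 in MHCII+CD11c+ controls. The difference between these responses was 1.14 ± 0.48 (adjusted p = 0.5369) and did not pass. Sqstm1 and Map1lc3b, the genes of the proteins most used to follow autophagy, were called in no IC comparison. Their log2 fold changes were -0.08 ± 0.18 and -0.08 ± 0.17 in the LYVE1+ subset, 0.27 ± 0.18 and -0.31 ± 0.17 in the MHCII+CD11c- subset, and 0.40 ± 0.21 and -0.29 ± 0.19 in the MHCII+CD11c+ subset. The median log2 fold change of the 39 genes after IC was -0.05, -0.12 and -0.07 in the same order, beside -0.14, -0.03 and 0.01 over all genes.

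**Figure D5:**
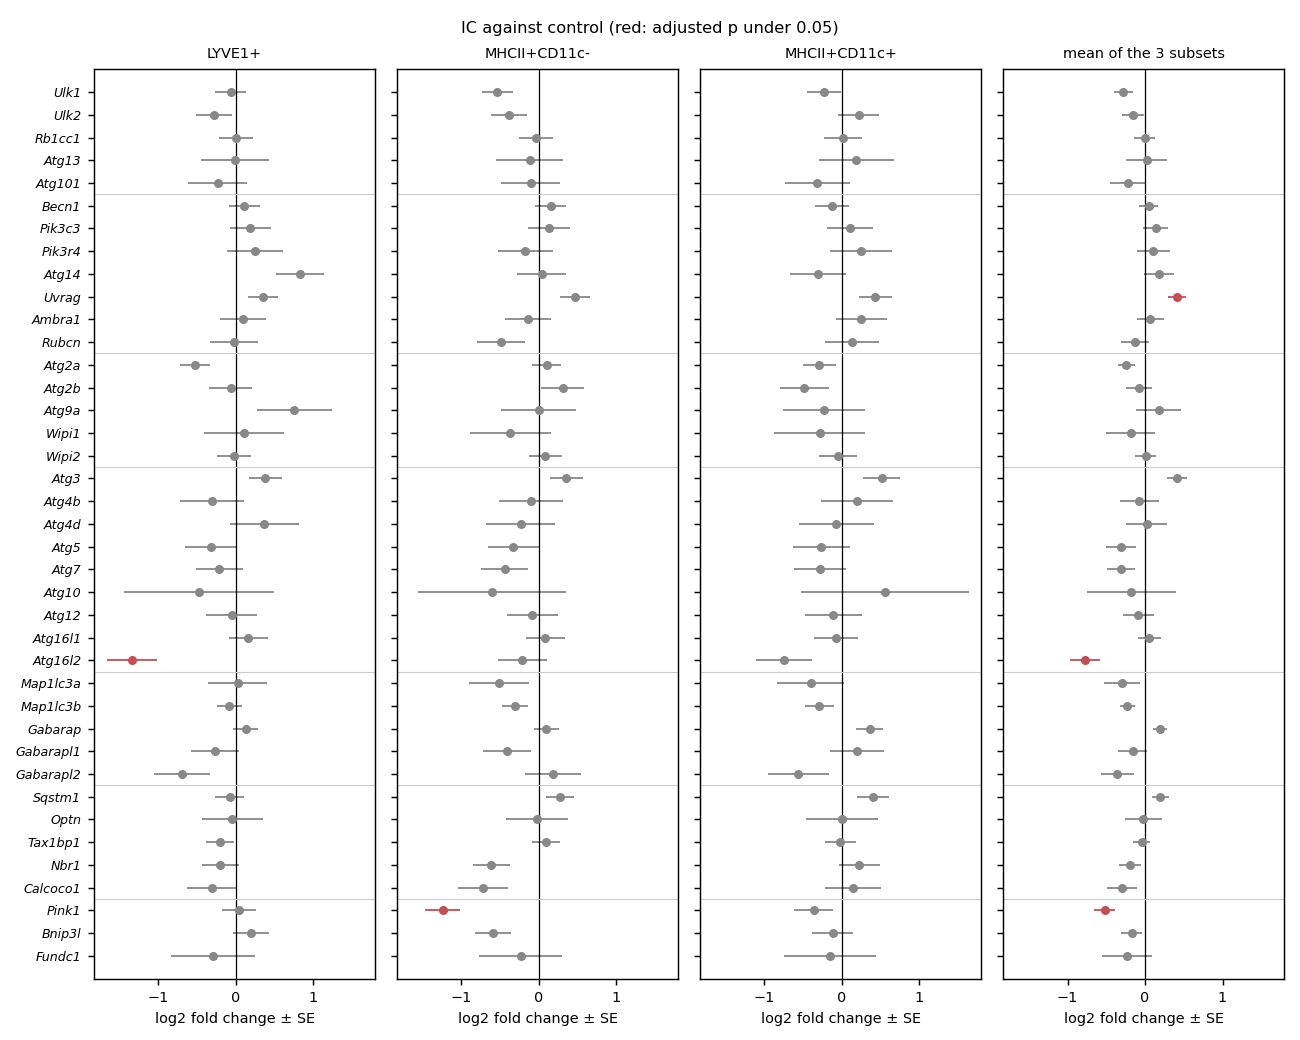
Log2 fold change (point) with its standard error (bar) of IC against control for the 39 genes, by role, in each macrophage subset and averaged over the 3 subsets, all on 1 scale. Red points have an adjusted p under 0.05, and there are 1, 1, 0 and 3 of them from left to right.

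The promoters of the 3 genes called after IC are shown because these genes were also called between control subsets. Each of their IC calls was lost in some of the alternatives, as given above. They are RefSeq promoters on GRCm38.p6, 250 bases before to 50 bases after the start of transcription, all on the minus strand and written 5′ to 3′. They lie at chr4:138326247-138326546 for Pink1 (gene ENSMUSG00000028756.12, chr4:138313409-138326307), at chr7:101302039-101302338 for Atg16l2 (ENSMUSG00000047767.17, chr7:101263034-101302251) and at chr7:99141095-99141394 for Uvrag (ENSMUSG00000035354.9, chr7:98885021-99141141). Gene positions are those of GENCODE M21. Capitals mark the letters of the GC box (GGGCGG), the CCAAT box (CCAAT) and the cyclic AMP response element (TGACGTCA) on either strand.
Pink1: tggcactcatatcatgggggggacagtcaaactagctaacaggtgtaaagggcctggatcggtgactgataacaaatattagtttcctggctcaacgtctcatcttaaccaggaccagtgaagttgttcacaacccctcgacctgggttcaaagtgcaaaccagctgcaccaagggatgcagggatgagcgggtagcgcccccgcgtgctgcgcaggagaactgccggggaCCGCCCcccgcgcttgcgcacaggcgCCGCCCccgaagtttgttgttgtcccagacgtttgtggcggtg
Atg16l2: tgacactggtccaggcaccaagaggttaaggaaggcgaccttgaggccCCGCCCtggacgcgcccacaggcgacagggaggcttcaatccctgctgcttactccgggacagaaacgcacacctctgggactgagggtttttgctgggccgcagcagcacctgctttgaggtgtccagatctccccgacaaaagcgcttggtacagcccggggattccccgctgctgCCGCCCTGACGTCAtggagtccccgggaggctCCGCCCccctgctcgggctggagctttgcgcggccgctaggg
Uvrag: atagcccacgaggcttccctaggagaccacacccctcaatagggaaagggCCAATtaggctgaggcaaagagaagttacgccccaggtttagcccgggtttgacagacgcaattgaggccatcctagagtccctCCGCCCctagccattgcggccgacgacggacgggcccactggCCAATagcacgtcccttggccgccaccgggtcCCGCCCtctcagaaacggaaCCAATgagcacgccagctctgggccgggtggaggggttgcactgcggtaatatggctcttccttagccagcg
The Pink1 promoter held 2 GC boxes, and that of Atg16l2 held 3 GC boxes, the second of which runs directly into a cyclic AMP response element that begins at position -18 from the start. That of Uvrag held 2 GC boxes and 3 CCAAT boxes.

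Of the 39 genes, 32 had a promoter in this table, and Rb1cc1, Becn1, Pik3c3, Atg12, Atg16l1, Map1lc3a and Bnip3l had none. The GC box was present for 23 of the 32 (71.9%, beside 66.3% of the 10441 tested genes with such a promoter), the CCAAT box for 8 (25.0% beside 42.6%) and the cyclic AMP response element for 2, Atg16l2 and Atg5 (6.25% beside 3.47%). TCACGTGA, the core of the element bound by TFEB, a transcription factor of autophagy and lysosome genes, was present for Atg3 alone (3.12% beside 2.15%). The shorter CACGTG within it was present for 5, Atg3, Atg5, Atg7, Atg14 and Rubcn (15.6% beside 11.5%). TGACNNNGC, the core of the element bound by NRF2, was present for 4, Atg13, Map1lc3b, Tax1bp1 and Ulk2 (12.5% beside 16.9%), and GTAAACA of FOXO factors for none (3.06% of all). All motifs were searched on both strands. Of the 13 members higher in LYVE1+ than in MHCII+CD11c+ controls, 12 had a promoter, and these held TCACGTGA in 0 and the GC box in 11 cases, against 1 and 12 of the other 20.

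Among 75 other genes of the pathway in the table, from lysosome fusion to chaperone-mediated autophagy, all of which were tested, 23 differed between LYVE1+ and MHCII+CD11c+ controls (30.7%, beside 15.2% of all genes), and LYVE1+ macrophages had the higher level for 19 of them (7.83% of all genes were called higher there) and the lower for 4. The 5 with the smallest p were higher there. They were Sesn1, a stress-response gene that restrains mTORC1 (131 ± 7.77 against 28.7 ± 7.19 CPM, log2 fold change 2.19 ± 0.22), Wdfy3, an adaptor for aggregates (575 ± 32.0 against 205 ± 26.8 CPM, 1.49 ± 0.16), Lamp1, a major lysosomal membrane protein (1140 ± 112 against 441 ± 60.7 CPM, 1.37 ± 0.15), Plekhm1, an adaptor of lysosome fusion (170 ± 11.5 against 65.4 ± 14.1 CPM, 1.38 ± 0.19), and Sh3glb1, a partner of UVRAG and beclin 1 (352 ± 28.3 against 164 ± 41.4 CPM, 1.10 ± 0.18), with adjusted p-values of 2.204e-07, 5.57e-07, 7.806e-07, 2.07e-05 and 0.0001299 (n = 3 each). By list, beside the same 15.2% of all genes, 5 of 14 lysosome fusion genes were called, all higher in LYVE1+ macrophages, 8 of 19 genes of transcription and nutrient control (6 higher, 2 lower), 3 of 13 other core genes (2 higher, 1 lower), 1 of 17 other mitophagy genes (lower), 4 of 10 receptors of the reticulum and other cargo (all higher) and 2 of 3 genes of chaperone-mediated autophagy (both higher). Epg5 stands in 2 of these lists. Between MHCII+CD11c+ and MHCII+CD11c- controls 12 of 75 differed (16%, beside 8.66% of all genes), all lower in MHCII+CD11c+ macrophages (4.99% of all genes), and Wdfy3, Sesn1 and Lamp1 had the smallest p (log2 fold changes of -1.28 ± 0.16, -1.72 ± 0.22 and -0.98 ± 0.15). None of the 75 was called by edgeR between LYVE1+ and MHCII+CD11c- controls (1.56% of all genes). There, 12 of 75 had an unadjusted p under 0.05, beside 1564 of all 15272 genes.

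After IC, 1 of the 75 was called in a single subset (1.33%, beside 0.701% of all genes in that subset). Hspa8, the chaperone that selects the cargo of chaperone-mediated autophagy and acts in protein folding at large, rose in MHCII+CD11c- macrophages from 2790 ± 112 to 5040 ± 1050 CPM (n = 3 each, log2 fold change 0.85 ± 0.15, adjusted p = 0.004133, up to 0.09603 over the alternatives). Its IC libraries also lay above all controls in the other subsets, where it was not called. It had 2650 to 2980 CPM in LYVE1+ controls and 3900 to 4230 CPM after IC. In MHCII+CD11c+ macrophages it had 3460 to 3730 CPM in controls and 4520 to 5800 CPM after IC. Averaged over the subsets 4 of 75 were called (5.33%, beside 3.35% of all genes). Hspa8 (0.63 ± 0.09, adjusted p = 0.0001505), Prkaa1, which encodes a catalytic subunit of the kinase AMPK (0.66 ± 0.17, adjusted p = 0.02715), and Lamp1 (0.34 ± 0.09, adjusted p = 0.03634) were higher after IC. Epg5, which tethers autophagosomes to lysosomes, was lower (-0.58 ± 0.15, adjusted p = 0.03708). Over the alternatives the adjusted p of these average responses rose to at most 0.001268 for Hspa8, and to 0.1051 for Prkaa1, 0.1435 for Lamp1 and 0.2165 for Epg5, whose calls were then lost. In LYVE1+ and MHCII+CD11c+ macrophages 0 of 75 were called by edgeR (0.963% and 0.216% of all genes), with 14 and 8 at an unadjusted p under 0.05.

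Shared sequence limits some of these counts. Of the 39 members, 14 share exon bases with a gene on the opposite strand. The kit was stranded, but whether the counting used the strand is not stated. Among the called members the longest such overlap is that of Uvrag, 1589 bases with Gm45187, which had at most 7.19 CPM in any library. Sqstm1 shares 580 bases with Mrnip (13.2 to 58.1 CPM), and Atg16l2 shares 25 bases with Fchsd2 (62.4 to 318 CPM). On the same strand, Pink1 shares 69 bases with Mir7019 and 110 with Gm27646, and Atg9a shares 1832 with Gm29253. These same-strand genes are not in the count table.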

How the data were processed

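A stranded pico-input kit was used on 5 ng of RNA per library. Per the labels, the authors used Trim Galore for trimming, HISAT2 for alignment to mm10 and featureCounts for gene counts. Versions, annotation and strand setting are not given in the sources used here. The deposited values are raw counts per gene symbol. Single-library tables and the joint table were identical for 17 of 17 libraries, and 1 further column matched no sample, summed to 0 and was not used. No pair of replicates agreed within counting noise (lowest chi-square per degree of freedom 6.77).

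The analysis used edgeR 4.0.16 under R 4.3.3. The filter was filterByExpr (minimum count 10), libraries were scaled by TMM, and 1 model with a mean for each of 6 groups was fitted to all 17 libraries (robust glmQLFit, 11 residual degrees of freedom). Each contrast was put to the quasi-likelihood F test, p-values were adjusted by Benjamini-Hochberg over its 15272 genes, and the threshold was 0.05. Errors of log2 fold changes are standard errors. The biological coefficient of variation was 45.1%, so changes of single genes, large ones included, could be missed at this depth and number of libraries. Levels per length used merged exons of GENCODE M21 (GRCm38). The fit was tested on simulated data. Alternatives were DESeq2 1.42.0, its size factors, no filter, limma 3.58.1 voom with sample quality weights, surrogate variables (sva 3.50.0, as the authors removed an unnamed batch with sva), equal depth, a gene length offset, replicate blocks, the compared groups alone and each library left out. No label gave a batch. The members, the gene lists and the motifs were chosen with earlier results of these data known. Every member is named, with all 17 values for those called in any contrast, and at most 5 called genes of the other pathway lists are named per contrast. Of 80 such genes listed, 75 were in the table.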

Additional observations from a re-analysis of the deposited data

How the results depend on the processing

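Of 28 differences called among the 39 genes, 9 held under every alternative run for them and none changed sign. The 9 were Gabarapl1, Map1lc3b, Nbr1, Optn, Pink1, Ulk2 and Uvrag between LYVE1+ and MHCII+CD11c+ controls, and Nbr1 and Rubcn between MHCII+CD11c+ and MHCII+CD11c- controls. Over 473 alternative fits of the 28 differences the call was kept in 355 and lost in 118. For IC in LYVE1+ macrophages 1 member was called, and 0 with DESeq2 size factors, at equal depth, without the filter, with the compared groups alone or with voom weights, 2 with surrogate variables, and 0 without any 1 of its 6 libraries. For IC in MHCII+CD11c- macrophages 0 to 1 was called when a library was left out. For the average response the count of 3 was 1 at equal depth, 2 without the filter, and 0 to 3 when a library was left out. Between LYVE1+ and MHCII+CD11c- controls 2 members were called with voom weights and 0 to 1 when a library was left out. Between LYVE1+ and MHCII+CD11c+ controls 7 to 12 were called when a library was left out, and between MHCII+CD11c+ and MHCII+CD11c- controls 4 to 9, with 3 under surrogate variables. DESeq2 called 1 difference of IC responses between LYVE1+ and MHCII+CD11c- macrophages, where edgeR called 0. Where 1 of the 2 MHCII+CD11c+ IC libraries was left out, the other was assumed to vary like the libraries of the other groups. The cause of these shifts was not tested.

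Replicate numbers are shared by the labels of different groups. Deviations of libraries with the same number had correlations of -0.15 to 0.08 between control and IC groups. Between subsets of the same treatment the correlations were positive in each pair, at 0.001 to 0.29. Libraries of 1 treatment with the same number may therefore not be independent. As the labels name no pairs, the numbers were not taken as pairs in the main fit. With replicate number as a block, 12 members were called between LYVE1+ and MHCII+CD11c+ controls, 8 between MHCII+CD11c+ and MHCII+CD11c- controls, 1 each for IC in LYVE1+ and MHCII+CD11c- macrophages and 2 for the average response, where the call of Uvrag was lost. With the number as a block within each treatment, 13 and 9 were called in those comparisons of controls.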
